A study of Mus musculus with 12 samples.

Results

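Transforming growth factor beta (TGF-beta) signalling was followed at the RNA level in 8 genes, chosen by symbol from the 40853 gene symbols of the count tables: the ligands Tgfb1 and Tgfb2, the ligand tether Nrros, the receptors Tgfbr1 and Tgfbr2, the signal carriers Smad2 and Smad3, and the inhibitor Smad7. All 8 symbols were found and all 8 passed the low-count filter in every comparison. RNA had been sequenced from microglia and from astrocytes, each sorted by flow cytometry from dissociated whole brain. The 12 libraries fell into 4 groups of 3: microglia from wild-type (WT) mice, microglia from KPNA4 KO mice, astrocytes from WT mice and astrocytes from KPNA4 KO mice. Kpna4 codes for importin α4, a carrier of proteins into the nucleus. Every mouse was 8 to 9 weeks old and had been given 1 mg/kg lipopolysaccharide (LPS, a bacterial product that provokes inflammation) into the peritoneum 20 h earlier, in all 4 groups alike, and untreated mice were not analysed here. The cells in which Kpna4 was deleted, the deleted part of the gene and the antibodies of the sort are not named in the labels. Animal numbers in the labels show that each of the 6 mice gave 1 library of each cell type, so the 6 libraries of a cell type come from separate animals.

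TGF-beta is secreted in a latent complex and has to be released from it, which integrins on neighbouring cells can do; NRROS holds latent TGF-beta1 on the surface of microglia. Free ligand binds the receptor TGFBR2, which activates TGFBR1, and this kinase phosphorylates SMAD2 and SMAD3, which join SMAD4 and act on genes in the nucleus. SMAD7 blocks the activated receptor and is itself a target gene, and in the brain TGF-beta is known for keeping microglia in their resting, tissue-specific state.

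The libraries of microglia totalled between 10.3 M and 14.5 M counts, those of astrocytes between 10.7 M and 15.6 M, and a member had between 3 and 12859 counts in a library. Levels are given as CPM, the usual scaling of counts to the library total. The 8 microglia markers summed to 1.76% to 2.23% of all counts in the libraries labelled microglia and to 0.0176% to 0.0638% in those labelled astrocytes, on average 1.98% of their microglia level. The 8 astrocyte markers summed to 1.54% to 2.02% in astrocytes and to 0.0327% to 0.0659% in microglia, on average 2.31% of their astrocyte level. The marker sums matched both labels. Kpna4 itself stood at 59.8 to 96.4 CPM in microglia and 40.1 to 80.2 CPM in astrocytes, and in both cell types the WT and KO libraries overlapped. Its log2 difference, KO minus WT, was -0.31 (SE 0.21, edgeR adjusted p = 0.778) in microglia and 0.47 (SE 0.23, edgeR adjusted p = 0.999) in astrocytes. These counts sum over the whole gene, so they check the labels only if the deletion removes the counted RNA. Kpna4 did not separate the libraries labelled KO from those labelled WT, and WT and KO stand for these labels throughout.

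Between the cell types, 7 of the 8 members were higher in microglia and Tgfb2 alone was higher in astrocytes. All 8 differences passed edgeR's quasi-likelihood test at an adjusted p under 0.05, among 64.6% of all 17294 genes tested (28.2% higher in microglia and 36.4% lower; 67.5% had an unadjusted p under 0.05), so that a call by itself does not set the members apart. The members' median log2 difference, microglia minus astrocytes, was 3.17, against -0.19 over all genes tested. The libraries of the cell types did not overlap for 7 members, which held for 46.5% of all genes (24.9% with microglia above and 21.7% with microglia below), and each of the 6 animals showed the direction of the mean for all 8 members. In bulk libraries, fewer cells that express a gene and less RNA per cell cannot be told apart.

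**Figure D1:**
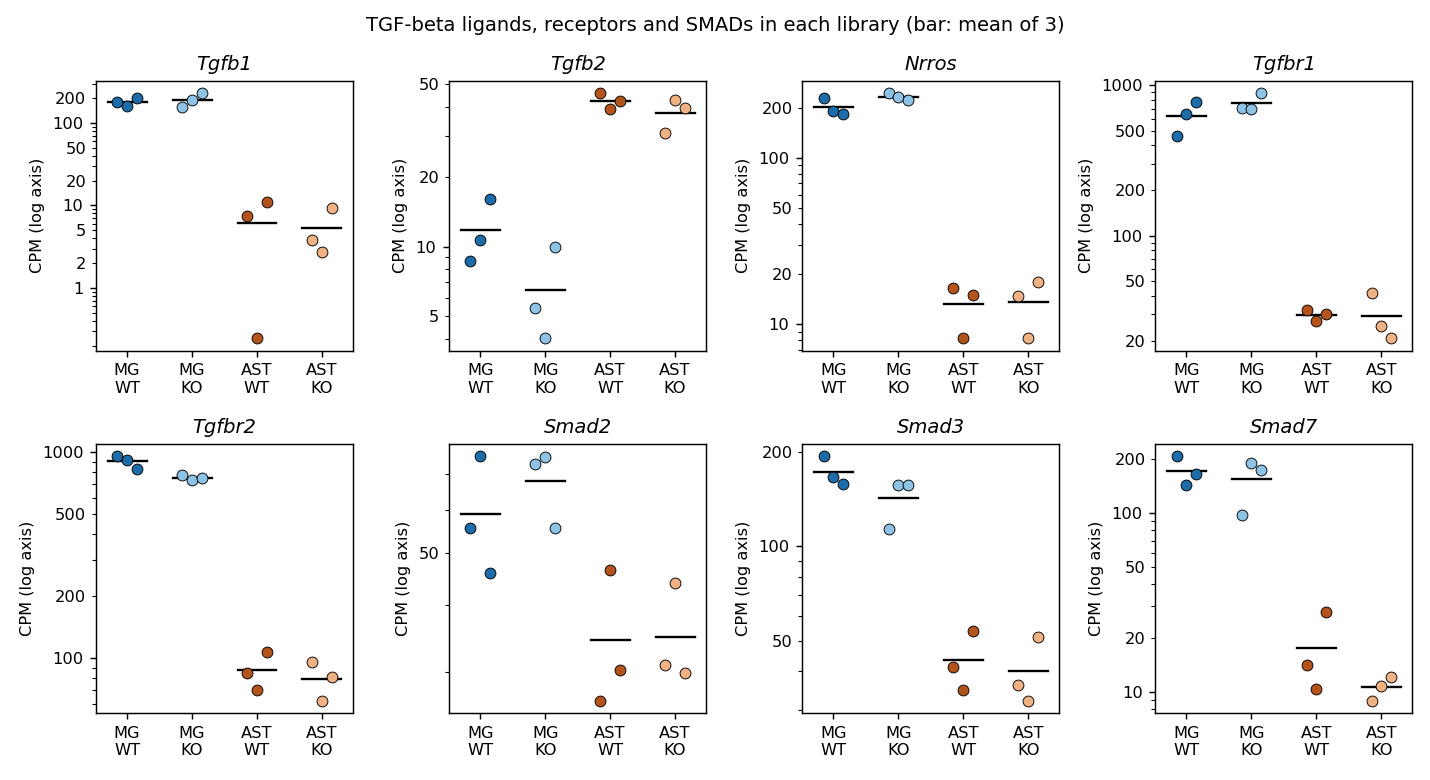
Each panel shows 1 gene, with a point for each library and a bar for the mean of 3; the y axis is CPM on a log scale, and the groups are microglia (MG) and astrocytes (AST) of WT and KO mice. Tgfb2 is the 1 panel in which astrocytes lie above microglia, and Smad2 the 1 panel in which the cell types overlap.

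The ligands split between the cell types. Tgfb1 codes for the main TGF-beta of immune cells. In WT microglia it stood at 179.9, 158.7 and 201.3 CPM, and in KO microglia at 155.1, 188.3 and 229.2 CPM. In WT astrocytes it stood at 7.41, 0.244 and 10.9 CPM, and in KO astrocytes at 3.83, 2.699 and 9.44 CPM. Every microglia library was above every astrocyte library, and the log2 difference was 4.76 (SE 0.51, edgeR adjusted p = 1.10e-06). The lowest astrocyte library, WT replicate 2, held 3 counts of Tgfb1 and also the lowest sum of microglia markers, 0.0176% against 0.0318% to 0.0638% in the other astrocyte libraries. Averaged over 6 libraries, Tgfb1 in astrocytes was 3.11% of its microglia level, beside the 1.98% of the microglia markers. How much of the astrocyte value came from microglial RNA was not tested.

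Tgfb2 codes for the second TGF-beta ligand, which reaches its receptors best with the help of the co-receptor betaglycan. In WT astrocytes it stood at 45.8, 39.1 and 42.3 CPM, and in KO astrocytes at 30.8, 42.7 and 39.7 CPM. In WT microglia it stood at 8.67, 10.7 and 16.1 CPM, and in KO microglia at 5.43, 4.02 and 9.99 CPM. Every astrocyte library was above every microglia library, and the log2 difference, microglia minus astrocytes, was -2.49 (SE 0.27, edgeR adjusted p = 1.17e-06). Its mean level in microglia was 0.228 of that in astrocytes, while astrocyte markers in microglia averaged 2.31% of their own level. Within an animal, astrocytes held 2.64 to 10.6 times the microglial CPM of Tgfb2.

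Nrros stood beside Tgfb1 in microglia. Its levels were 229.9, 189.6 and 182.5 CPM in WT microglia and 243.7, 232.4 and 222.2 CPM in KO microglia. In astrocytes they were 16.5, 8.21 and 14.97 CPM in WT and 14.7, 8.28 and 18.0 CPM in KO. No astrocyte library came near a microglia library, and the log2 difference was 3.75 (SE 0.20, edgeR adjusted p = 9.25e-10). The astrocyte mean was 6.21% of the microglia mean.

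To show what lies before the start sites of the ligand genes with opposite patterns and of the tether, the 250 bases upstream of a RefSeq start are printed 5′ to 3′ along the gene, from the RefSeq table on build GRCm38.p6. The windows are chr7:25686752-25687001, plus strand, for Tgfb1, chr1:186705990-186706239, minus strand, for Tgfb2 and chr16:32165595-32165844, minus strand, for Nrros. Capitals mark matches on either strand to the GC box GGGCGG (read CCGCCC on the other strand) or to the SMAD repeat CAGACA.
Tgfb1: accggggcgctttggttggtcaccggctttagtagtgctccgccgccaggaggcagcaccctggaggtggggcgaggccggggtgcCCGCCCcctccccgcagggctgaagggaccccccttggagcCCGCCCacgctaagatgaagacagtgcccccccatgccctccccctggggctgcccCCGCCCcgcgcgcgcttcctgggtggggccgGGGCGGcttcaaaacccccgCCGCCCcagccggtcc
Tgfb2: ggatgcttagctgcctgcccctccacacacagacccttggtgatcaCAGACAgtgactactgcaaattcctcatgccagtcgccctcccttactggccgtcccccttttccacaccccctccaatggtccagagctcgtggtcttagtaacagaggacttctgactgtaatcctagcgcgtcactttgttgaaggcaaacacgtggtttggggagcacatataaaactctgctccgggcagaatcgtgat
Nrros: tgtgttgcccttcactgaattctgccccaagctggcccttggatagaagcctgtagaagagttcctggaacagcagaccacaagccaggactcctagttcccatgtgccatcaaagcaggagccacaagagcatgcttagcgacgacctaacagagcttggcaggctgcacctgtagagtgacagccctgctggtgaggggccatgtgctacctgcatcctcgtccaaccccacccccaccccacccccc

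The Tgfb1 window held 5 GC box matches and was 75.2% G and C. The Tgfb2 window held no GC box and 1 CAGACA, at 53.6% G and C, and the Nrros window held neither, at 58.4%. Of all 32851 windows of this length in the table, 32.7% held a GC box and 17.1% a CAGACA on either strand. A window was read for 6 of the 8 members, 7 windows in all since Tgfbr1 has 2 starts. The first Tgfbr1 window and the Smad3 window each held 2 GC boxes, the second Tgfbr1 window held 1 CAGACA, and the Tgfbr2 window held neither. The PU.1 core GAGGAAGT (in 2.44% of all windows), the AP-1 site TGANTCA (6.75%) and the SMAD palindrome GTCTAGAC (0.167%) had no match in any of the 7 windows, and no matches overlapped in the printed ones. A match describes these letters and not a bound site.

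Per length of exon, the receptor genes were the most abundant members in microglia, as the order per kilobase given further on shows. Tgfbr2, which binds the ligand first, stood at 957.6, 917.7 and 828.0 CPM in WT microglia and at 773.8, 734.3 and 746.4 CPM in KO microglia. In astrocytes it stood at 84.9, 70.4 and 107.7 CPM in WT and at 96.1, 62.1 and 81.2 CPM in KO. Each animal's microglia held 7.68 to 13.03 times the CPM of its astrocytes. The log2 difference was 3.03 (SE 0.14, edgeR adjusted p = 3.55e-10), and the astrocyte mean was 10.1% of the microglia mean.

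Tgfbr1, the kinase that phosphorylates SMAD2 and SMAD3, stood at 461.2, 649.5 and 777.4 CPM in WT microglia and at 710.7, 698.3 and 885.6 CPM in KO microglia. In astrocytes it stood at 31.9, 26.9 and 30.1 CPM in WT and at 41.7, 25.2 and 20.7 CPM in KO. The log2 difference was 4.28 (SE 0.20, edgeR adjusted p = 3.13e-10), and the astrocyte mean was 4.22% of the microglia mean. Both receptors were thus at a lower share of their microglia level in astrocytes than Smad3 (26.4%) and Smad2 (54.5%), shares that were set side by side and not tested against each other.

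Of the signal carriers, Smad3 differed more between the cell types than Smad2. Smad3 stood at 193.9, 166.8 and 157.5 CPM in WT microglia, at 113.8, 156.4 and 156.4 CPM in KO microglia, at 41.3, 35.0 and 53.9 CPM in WT astrocytes and at 36.2, 32.1 and 51.4 CPM in KO astrocytes. The cell types did not overlap, and its log2 difference was 1.65 (SE 0.17, edgeR adjusted p = 5.80e-07). Smad2 stood at 55.5, 75.6 and 45.9 CPM in WT microglia, at 73.1, 75.4 and 55.6 CPM in KO microglia, at 26.5, 46.3 and 30.2 CPM in WT astrocytes and at 30.9, 43.8 and 29.9 CPM in KO astrocytes. Its cell types overlapped, since astrocyte WT replicate 2 lay above microglia WT replicate 3. The log2 difference of Smad2 was 0.55 (SE 0.22, edgeR adjusted p = 0.0417), 1.47-fold under the TMM scaling of the test. By CPM over library totals, microglia held 1.52 to 2.36 times the level of astrocytes within each of the 6 animals. Library totals in place of TMM moved the median log2 difference of all genes by 0.28 towards microglia. These ratios and the fold of the test are thus not on the same scale. The call of Smad2 was lost under 4 of 16 alternatives, with edgeR adjusted p up to 0.136. Without WT replicate 1 it was 0.135.

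Smad7, the inhibitor, stood at 208.4, 143.8 and 164.8 CPM in WT microglia and at 97.1, 191.1 and 173.8 CPM in KO microglia. In astrocytes it stood at 14.2, 10.3 and 27.8 CPM in WT and at 8.84, 10.8 and 12.1 CPM in KO. No libraries overlapped between the cell types, and the log2 difference was 3.31 (SE 0.26, edgeR adjusted p = 4.84e-08). The astrocyte mean was 8.58% of the microglia mean.

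Levels of different genes were compared per kilobase (kb) of the gene's exons, from gene models of an older build than the files' own. In microglia, Tgfbr1 at 106.7 ± 21.7 CPM per kb (SD, n = 6) and Tgfbr2 at 100.9 ± 11.4 CPM per kb came first and did not differ beyond their spread. Nrros followed at 51.9 ± 5.95 CPM per kb, then Tgfb1 at 36.8 ± 5.50, Smad7 at 36.1 ± 8.67 and Smad3 at 28.4 ± 4.65, each overlapping the next. Smad2 at 7.23 ± 1.46 and Tgfb2 at 1.58 ± 0.737 CPM per kb lay apart at the bottom. With the length of the longest transcript instead, Tgfb1 (72.1 CPM per kb) stood above Nrros (60.6 CPM per kb), so the order of these neighbours rests on the gene model.

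In astrocytes the order per kb was flatter, and every neighbour overlapped the next. Tgfbr2 led at 10.2 ± 2.03 CPM per kb (SD, n = 6), followed by Smad3 at 7.51, Tgfb2 at 6.92, Tgfbr1 at 4.51, Smad2 at 3.94, Nrros at 3.22 and Smad7 at 3.10 CPM per kb. Tgfb1 was last at 1.14 ± 0.825 CPM per kb. Per kb, the ratio of Tgfb1 to Tgfb2 was 18.4 ± 4.86 in WT microglia (SD, n = 3) and 37.7 ± 14.4 in KO microglia, against 0.163 ± 0.146 in WT and 0.163 ± 0.102 in KO astrocytes. In microglia this ratio ranged from 14.4 to 23.8 in WT and from 26.4 to 53.9 in KO, while Tgfb1 and Tgfb2 each overlapped between the genotypes. With the longest transcripts as lengths, a choice added after the data were seen, this ratio became 31.9 (WT) and 65.2 (KO) in microglia and 0.283 (WT) and 0.282 (KO) in astrocytes, so its size rests on the gene model. The other pairs overlapped between the genotypes in microglia: Smad3 over Smad2 ranged from 3.49 to 5.54 and from 2.47 to 4.46, and Tgfbr1 over Tgfbr2 from 0.603 to 1.18 and from 1.15 to 1.49. These ratios were not tested, and how often ratios of other gene pairs separate the genotypes was not counted.

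Other genes of the pathway, and microglia genes known to respond to TGF-beta, were described in 7 lists of 93 genes. Of these, 90 were tested between the cell types: 38 were higher in microglia, 37 lower and 15 were not called. That is 83.3% called, against 64.6% of all genes (28.2% higher and 36.4% lower). The shares by list ran from 66.7% for the co-receptors to 92.3% for latency and activation. Of the microglia genes known to depend on TGF-beta, 11 of 12 were higher in microglia, and of those held down by it, 6 of 10. The counts over all lists thus rest in part on how the lists were chosen. In the list of latency and activation genes, 5 of 13 tested were higher in microglia and 7 lower. The higher ones included the integrin subunits Itgb3 (58.6 ± 11.8 CPM in microglia, SD, n = 6, and 2.001 ± 1.17 in astrocytes, log2 difference 4.57), Itgb5 (3.18) and Itgb1 (1.47). The lower ones included the latent TGF-beta binding proteins Ltbp2 (log2 difference -5.39), Ltbp1 (-5.12, with 1.37 ± 1.15 CPM in microglia and 39.0 ± 12.1 in astrocytes) and Ltbp4 (-4.62). Itgb8, the integrin subunit known for releasing TGF-beta1, was singled out after its values were seen. It stood at 8.62 to 35.98 CPM in microglia and at 279.6 to 385.3 CPM in astrocytes, a log2 difference of -4.47 (SE 0.22, edgeR adjusted p = 4.38e-10). So the ligand Tgfb1 and its tether were higher in microglia, and the binding proteins named here were higher in astrocytes. The integrin subunits split, with Itgb3, Itgb5 and Itgb1 higher in microglia and Itgb8, picked by its values, higher in astrocytes.

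Among co-receptors and other receptors, 3 of 12 were higher in microglia and 5 lower, against 28.2% and 36.4% of all genes. The endothelial-type co-receptor endoglin (Eng) and its partner Acvrl1 were higher, by 2.87 and 2.08 on the log2 scale, and so was Acvr1 by 0.46, a call lost under 3 of 16 alternatives. The endothelial marker list, at 0.00216% to 0.00814% of counts in microglia and 0.00270% to 0.0127% in astrocytes, overlapped between the cell types. The part of endothelial cells in the values of Eng and Acvrl1 was not tested. Betaglycan (Tgfbr3), the co-receptor that presents TGF-beta2, was lower in microglia by a log2 difference of -3.05, with 8.05 ± 6.25 CPM (SD, n = 6) in microglia and 50.2 ± 11.5 CPM in astrocytes. Acvr1c (-7.25) and the bone morphogenetic protein receptor Bmpr1b (-6.63) were lower too, with microglia means of 0.614 and 1.67 CPM. Some libraries of the lower cell type held 0 counts of Acvr1c, Bmpr1b, Ltbp2 and Ltbp4, and of Smad9, Dcn, Clec7a and Itgax named below. The log2 sizes of these genes between the cell types are thus loosely fixed.

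Among other SMADs and SMAD regulators, 9 of 18 were higher in microglia, 5 lower and 4 not called. That is 77.8% called, against 64.6% of all genes (28.2% higher and 36.4% lower). The repressors of SMAD signalling Skil (560.1 ± 78.5 CPM in microglia, SD, n = 6, and 33.3 ± 11.4 in astrocytes, log2 difference 3.81), Ldlrad4 (3.26) and Tgif1 (2.39) were higher. Smad9, a carrier of bone morphogenetic protein signals (-4.88), the ubiquitin ligase Nedd4l (-1.34) and the SMAD anchor Zfyve9 (-0.72) were lower. The call of Nedd4l was lost with WT animals only. Smad4, the shared partner of SMAD2 and SMAD3, was looked at after its values were seen: its log2 difference was 0.00 (SE 0.18, 95% interval -0.39 to 0.39), with a sign that changed under 7 of the alternatives.

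Among SMAD target genes, 4 of 12 were higher in microglia and 6 lower, against 28.2% and 36.4% of all genes. Tgfbi (3.16) and Klf10 (2.83), genes known to be induced by TGF-beta, were higher, and Id4 (-5.44), Id3 (-4.03) and Col1a1 (-3.55) lower. Id3 and Id4 are known as targets of bone morphogenetic proteins. Of the related ligands and traps, 11 of 13 tested were lower in microglia and none higher, led by the ligand Gdf10 (-6.73) and the matrix proteoglycans Dcn (-6.62) and Bgn (-5.53), which bind TGF-beta. Dcn, Bgn and Col1a1 are also made by fibroblasts and mural cells, whose 7 markers summed to 0.0213% to 0.0279% of counts in astrocytes and 0.000862% to 0.00320% in microglia; the part of those cells in these differences was not tested.

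Of 12 microglia genes known to depend on TGF-beta, 11 were higher in microglia, against 28.2% of all genes. They included Fcrls (5.77), Tmem119 (5.72) and Siglech (5.65), and Sparc was not called. These are microglia genes by their choice, so the comparison of cell types holds no information on their response to TGF-beta. Of 10 genes known to be held down by TGF-beta in microglia, 6 were higher in microglia and 3 lower. Of all genes, 28.2% were higher and 36.4% lower. For these 10 genes too, the comparison of cell types holds no information on their response to TGF-beta. Clec7a (6.38), Itgax (5.08) and the mannose receptor Mrc1 (4.12, 103.1 ± 29.8 CPM in microglia, SD, n = 6) were higher, and Apoe (-3.48), Axl (-1.71) and Lgals3 (-1.50) lower. Lgals3 lost its call under 9 of 16 alternatives, and its adjusted p was 0.07796 with the animal as a block. Mrc1 is made by border macrophages as well, and the 5 border macrophage markers summed to 0.00505% to 0.0115% of counts in microglia and 0.000342% to 0.00172% in astrocytes; their part in the result was not tested.

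**Figure D2:**
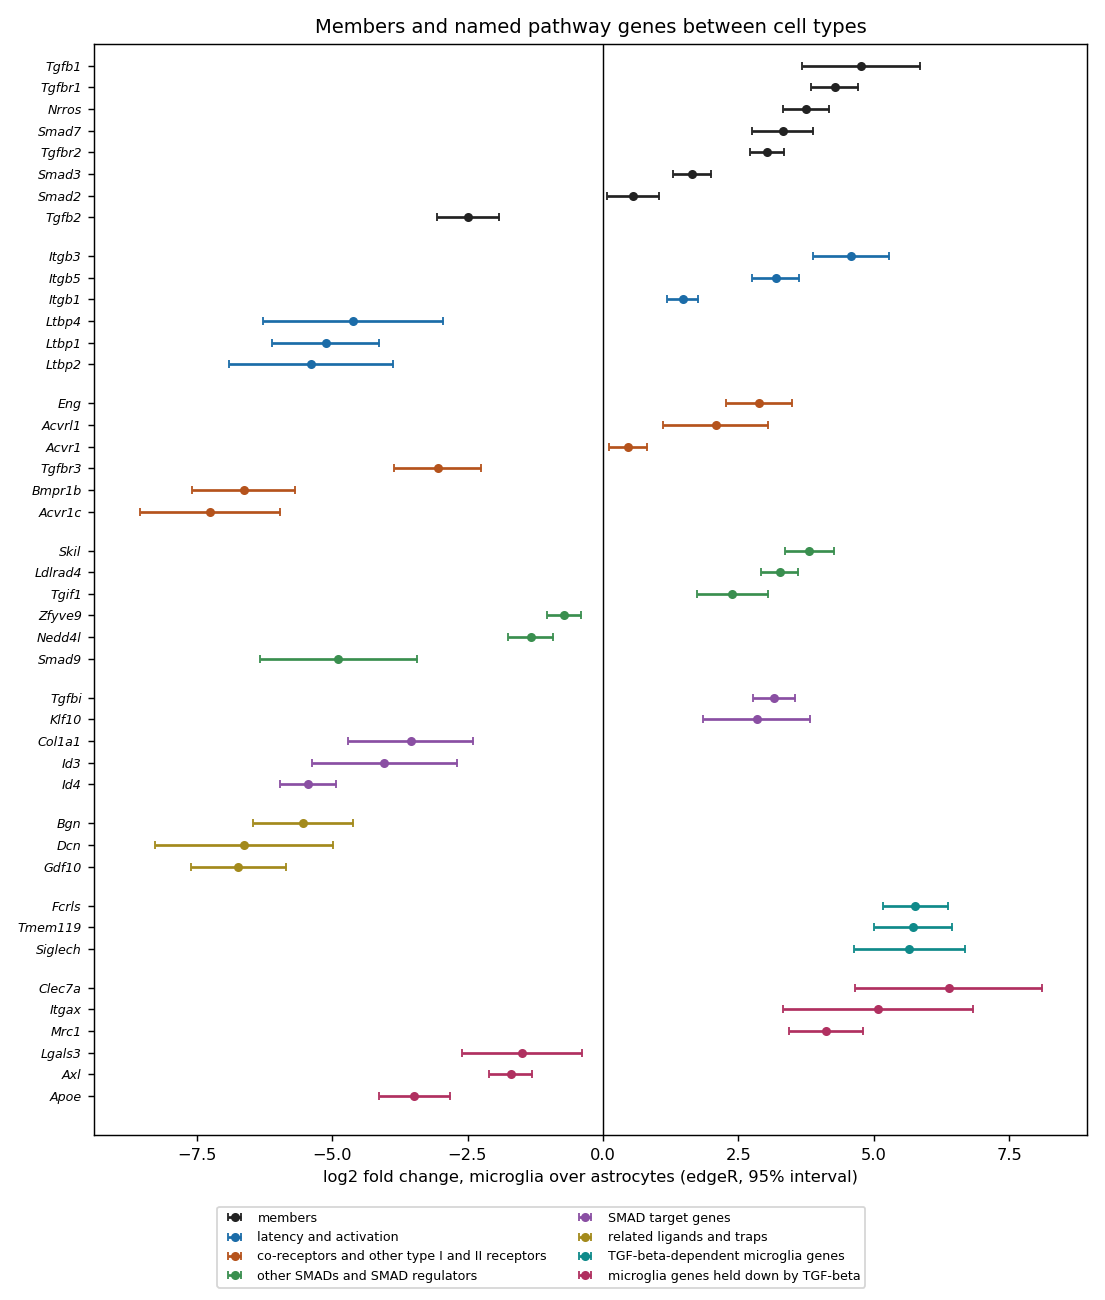
Points are log2 fold changes, microglia over astrocytes, from the fit of all 12 libraries, bars are 95% intervals, and colours are the members and the 7 pathway lists. Tgfb2 sits left of 0 at -2.49 with Ltbp1, Tgfbr3 and Gdf10, and the other 7 members sit right of 0 from 0.55 to 4.76.

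No member differed between the libraries labelled KO and those labelled WT by the test, in either cell type. In microglia, edgeR called 0 of the 8 members and 0 of all 14191 genes tested (percent called 0), and 0 members had an unadjusted p under 0.05, against 7.42% of all genes. DESeq2 and limma voom also called 0 members. Of the members, 4 were above 0 and 4 below 0 on the log2 scale, with a median of -0.06 against -0.00129 over all genes. With 3 animals a group, the 95% intervals of members other than Tgfb2 reached from -0.74 to 0.71, and differences within those bounds could not be told from none at this number of animals. The p-values of genotype within a cell type measure the spread between animals. Those of the main fit of 12 libraries measure the spread between libraries, without a term for the animal.

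Of the ligands, Tgfb2 had the larger difference in microglia and Tgfb1 stood close to 0. Tgfb2 was at 11.8 ± 3.82 CPM in WT microglia and 6.48 ± 3.12 CPM in KO microglia (SD, n = 3), with KO replicate 3 above WT replicate 1. The log2 difference, KO minus WT, was -0.88 (SE 0.43, 95% interval -1.81 to 0.05, edgeR unadjusted p = 0.0612, adjusted p = 0.698). Without WT replicate 3, the highest library, it was -0.61, and over 14 alternatives its adjusted p ranged from 0.379 to 0.999. Tgfb1 differed by 0.06 (SE 0.20, 95% interval -0.36 to 0.49) and Nrros by 0.19 (SE 0.19, 95% interval -0.22 to 0.59).

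For Tgfbr2 and Smad3, all KO microglia libraries lay below all WT libraries, 2 of 8 members, while 13.1% of all genes did not overlap, 6.57% with KO below and 6.53% with KO above. Tgfbr2 averaged 901.1 ± 66.4 CPM (SD, n = 3) in WT animals against 751.5 ± 20.2 CPM in KO animals, a log2 difference of -0.29 (SE 0.18, 95% interval -0.67 to 0.10, edgeR adjusted p = 0.759). Smad3 averaged 172.7 ± 18.9 CPM in WT animals against 142.2 ± 24.6 CPM in KO animals, a log2 difference of -0.31 (SE 0.20, edgeR adjusted p = 0.773), and its groups were separated by 156.4 against 157.5 CPM only. Neither passed the test. Tgfbr1 differed by 0.26 (SE 0.21), Smad2 by 0.18 (SE 0.24) and Smad7 by -0.19 (SE 0.25), with adjusted p from 0.825 to 0.896 and overlapping libraries.

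In astrocytes, edgeR called 0 of 8 members and 0 of 15755 genes (percent called 0), and 0 members had an unadjusted p under 0.05, against 2.37% of all genes; DESeq2 and limma voom called 0 members. No member had groups without overlap, against 8.13% of all genes (5.74% with KO below and 2.39% with KO above). The log2 differences of Tgfb2 (-0.02, SE 0.26), Tgfbr1 (0.09, SE 0.29), Tgfbr2 (-0.02, SE 0.21), Smad2 (0.17, SE 0.33), Smad3 (-0.00157, SE 0.24) and Nrros (0.14, SE 0.39) were all smaller than their errors. Smad7 had the largest difference, -0.56 (SE 0.41, 95% interval -1.45 to 0.33), with WT replicate 3 at 27.8 CPM apart from the other 5 libraries; without that replicate it was -0.13. Tgfb1 was measured least well, at -0.10 with a 95% interval from -2.13 to 1.93, and its sign changed when single libraries were left out.

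**Figure D3:**
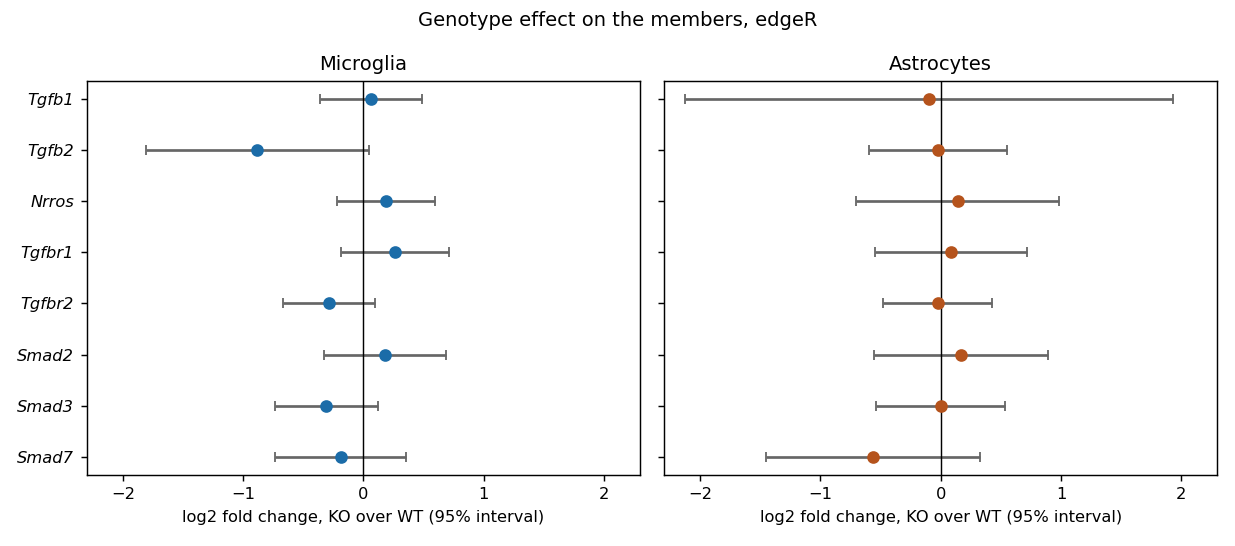
Points are log2 fold changes, KO over WT, for the 8 members in microglia and in astrocytes, and bars are 95% intervals from edgeR. All 16 intervals include 0, the one nearest to excluding it being Tgfb2 in microglia (-1.81 to 0.05).

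Whether the genotype difference itself differed between the cell types was tested for each gene in 1 fit of the 12 libraries, as astrocytes minus microglia. EdgeR called 0 of 8 members and 0 of 17294 genes (percent called 0); 0 members had an unadjusted p under 0.05, against 6.37% of all genes, and DESeq2 and limma voom called 0 members. Tgfb2 had the largest value, 0.95 (SE 0.51, 95% interval -0.14 to 2.04, edgeR unadjusted p = 0.0841, adjusted p = 0.847). The other members lay between -0.27 (Smad7) and 0.41 (Smad3), around a median of 0.16 over all genes. Scaling by library totals shifted that median by -0.23, and under it the values of Smad2 and Nrros were below 0.

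Of the pathway lists in microglia, 82 of 93 genes were tested between the genotypes, edgeR called none, and 14 had an unadjusted p under 0.05, against 7.42% of all 14191 genes. DESeq2 called 1 of them, among 41 genes it called in all, and limma voom called 0. The latency and activation genes had 9 of 12 below 0, a median log2 difference of -0.61 against -0.00129 over all genes, and 5 with an unadjusted p under 0.05. The gene of this list with the smallest p was Ltbp3, a latent TGF-beta binding protein. It stood at 15.1, 21.1 and 41.2 CPM in WT microglia and at 3.88, 6.61 and 8.68 CPM in KO microglia, so the groups did not overlap. Its log2 difference was -2.02 (SE 0.41, edgeR adjusted p = 0.394). DESeq2 called it (adjusted p = 0.00458), as did edgeR without a low-count filter (2.89e-05), with a replicate block (0.0151) and in the fit of 12 libraries (0.0312), and over all 14 alternatives the adjusted p reached 0.941.

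Of the integrin subunits of the same list, Itgb3, Itgb5 and Itgb8, picked here after their values were seen, had all KO libraries below all WT libraries in microglia, as did 6.57% of all genes. Itgb3 stood at 66.0, 67.8 and 73.1 CPM in WT and at 50.8, 43.6 and 50.6 CPM in KO, a log2 difference of -0.54 (SE 0.19, edgeR adjusted p = 0.587). Itgb5 differed by -0.55 (SE 0.22, adjusted p = 0.626) and Itgb8 by -0.90 (SE 0.34, adjusted p = 0.602). None of these passed the test. Itgb1 had the opposite sign, with 319.2 ± 50.6 CPM in libraries labelled WT (SD, n = 3) and 350.0 ± 37.0 CPM in those labelled KO (log2 difference 0.11, adjusted p = 0.929), and Itgav differed by -0.14 (adjusted p = 0.889); both overlapped.

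Outside that list, Acvr1c had 9 to 20 counts in the WT microglia libraries and 0 counts in the 3 KO libraries. A floor of 3 counts per library was at most 0.291 CPM in the KO libraries and covers counting error only. The WT mean of Acvr1c, 1.23 CPM, was 4.23 times that floor, with WT libraries from 0.807 to 1.52 CPM. This factor leaves out the spread between animals. The edgeR adjusted p was 0.542, and 0.0289, a call, in the fit of 12 libraries. Over 11 alternatives the adjusted p reached 0.941. Fstl1, a secreted relative of follistatin, averaged 4.21 ± 2.16 CPM (SD, n = 3) in the WT libraries against 0.521 ± 0.205 CPM in the KO libraries. Its log2 difference was -3.00 (SE 0.88, edgeR adjusted p = 0.542, and 0.0288 in the fit of 12 libraries). Over 13 alternatives its adjusted p reached 0.999. DESeq2 and limma voom called neither Acvr1c nor Fstl1 in microglia. Both genes are far higher in astrocytes (8.48 to 26.9 CPM and 33.2 to 71.2 CPM). The sets of genes known to depend on TGF-beta or to be held down by it in microglia had median log2 differences of 0.02 (6 of 12 below 0) and 0.22 (4 of 10 below 0).

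In microglia, Tgfb2, Ltbp3, Fstl1, Acvr1c, Itgb8 and Itgb3 were all highest in WT replicate 3. There Fstl1 stood at 6.16 CPM, Acvr1c at 1.52 CPM, Itgb8 at 35.98 CPM and Itgb3 at 73.1 CPM. Itgb5 was highest in WT replicate 1 instead, at 1918 CPM, against 1227 CPM in WT replicate 3. WT replicate 3 was also the library with the most RNA of choroid plexus and ependyma markers. These 6 markers summed to 0.0846%, 0.106% and 0.213% of counts in WT microglia and to 0.0344%, 0.0534% and 0.0867% in KO microglia. The groups overlapped (0.134% ± 0.0686 and 0.0582% ± 0.0265, SD, n = 3, 2-sided exact permutation p = 0.2, where 0.1 is the smallest that 3 against 3 allows). Most of the sum was Ttr, the thyroid hormone carrier of the choroid plexus, at 326.6 to 1934 CPM; Ccdc153 and Rarres2 were at most 1.74 and 0.502 CPM. WT replicate 3 also had the highest sum of astrocyte markers among microglia libraries, at 0.0659%. The same held for oligodendrocyte markers, at 0.174% against 0.0279% to 0.0787% in the other microglia libraries. It held as well for the lists of oligodendrocyte precursors, neurons, endothelial cells, mural cells and fibroblasts, and monocytes and neutrophils. It did not hold for border macrophages and lymphocytes. The part of other cell types in the values of the genes named here was not tested. All marker lists of other cell types together summed to 0.293% ± 0.163 (SD, n = 3) of WT counts against 0.1603% ± 0.0515 of KO counts (2-sided exact permutation p = 0.3).

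**Figure D4:**
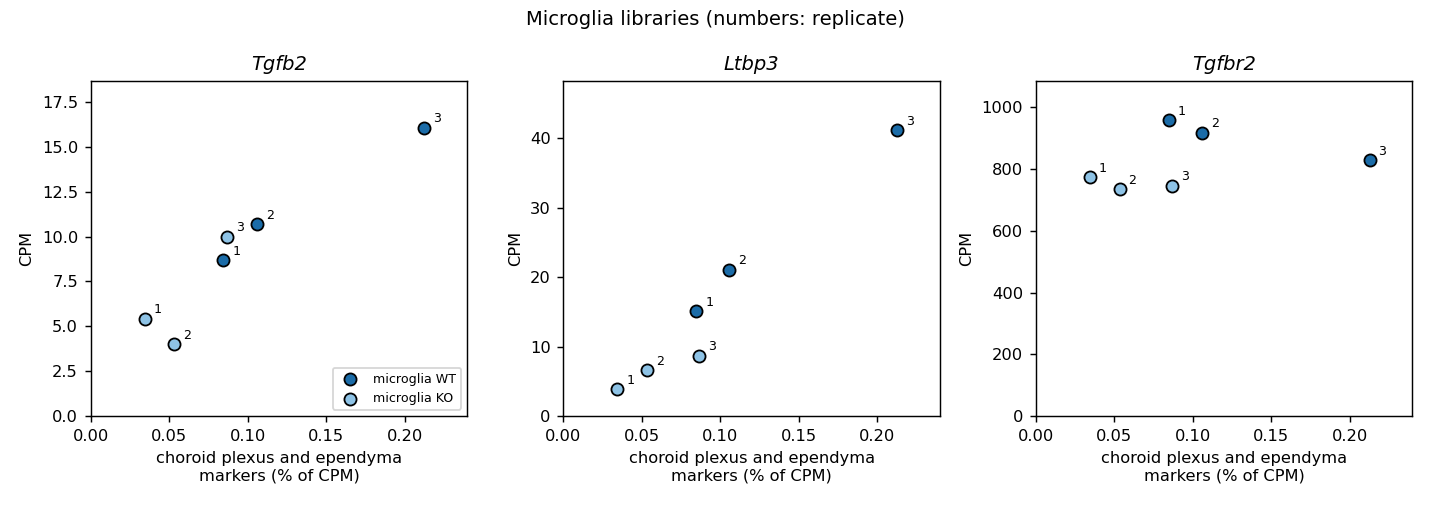
The x axis is the summed level of 6 choroid plexus and ependyma markers (% of CPM) and the y axis the CPM of Tgfb2, Ltbp3 and Tgfbr2 in the 6 microglia libraries, numbered by replicate. WT replicate 3 is the highest library for Tgfb2 (16.1 CPM) and Ltbp3 (41.2 CPM) and the lowest WT library for Tgfbr2 (828.0 CPM). It is also the highest for most marker lists that are not plotted, such as oligodendrocytes (0.174%).

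In astrocytes, 87 of 93 pathway genes were tested between the genotypes, edgeR called none, DESeq2 and limma voom called 0, and 3 had an unadjusted p under 0.05, a count near the 2.37% of all genes. Named by rule and not by a call, these were the secreted phosphoprotein Spp1 (17.1 ± 3.26 CPM, SD, n = 3, in WT libraries against 30.1 ± 5.84 CPM in KO libraries, log2 difference 0.95, edgeR adjusted p = 0.999), protein S (Pros1, 0.62) and Acvr1c (1.01). For the difference between cell types, edgeR called none of 90 pathway genes and 14 had an unadjusted p under 0.05, against 6.37% of all genes. The smallest p-values were those of Acvr1c (edgeR adjusted p = 0.118), Fstl1 (0.191) and Ltbp3 (0.351). DESeq2 called Acvr1c and Fstl1, among 54 genes in all, and limma voom called 0. Without a low-count filter, edgeR called 160 genes, with Acvr1c (adjusted p = 7.29e-05), Fstl1 (0.00038) and Ltbp3 (0.0203) among them.

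For each member the genes with the most similar profile were sought by Pearson's r of log2(CPM + 1) over the 12 libraries, as a description. The libraries form a microglial and an astrocytic cluster for 7 members, so a high r here says mainly that a gene has the same gap between them. Tgfb1 was closest to Rasgrp3 (r = 0.995), Niban1 and Man2a1, and Tgfb2 to Dab2ip (r = 0.991), Gpsm2 and Vcam1. Nrros was closest to Bach1 (r = 0.997), Nfatc1 and Fyb. Tgfbr1 was closest to Tlr4, the LPS receptor (r = 0.996), Tlr13 and Slfn2, and Tgfbr2 to Frmd4b (r = 0.997), Dock8 and Neurl3. Smad3 was closest to Chst7 (r = 0.993), Fscn1 and Ttc7, and Smad7 to Cebpa (r = 0.994), Rptor and Ttc7. Smad2, with the smallest gap, had the lowest best match, Metap1d (r = 0.963), followed by Utp25 and Ube2j2.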

How the data were processed

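The deposited values are estimated counts, in a table of microglia and a table of astrocytes with gene symbols as rows and libraries as columns. Per the submitters' processing notes, STAR 2.7.10b, RSEM 1.3.3, limma and the build GRCm39 were named, with no role or order given, and per the labels' protocols full-length cDNA was amplified with a SMART-Seq HT kit, which uses no molecular identifiers. Between 3.44% and 5.27% of the values above 0 were not whole (tolerance 0.001), and the values were rounded. Counting is not stated to use strand, so overlapping antisense RNA cannot be told apart. Intervals and floors from counts cover counting error only.

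CPM were taken over the library total. Differences were tested mainly with edgeR 4.0.16 (R 4.3.3), quasi-likelihood with TMM scaling, filterByExpr with a minimum count of 10 and Benjamini-Hochberg adjustment over all genes tested, called at an adjusted p under 0.05. Genotypes were compared in the 6 libraries of a cell type, and cell types and the difference of genotype effects in all 12. The main fit of all 12 left out the pairing by animal, and the animal as a block was an alternative. Scripts were tested on simulated data. Alternatives were DESeq2 1.42.0, voom with quality weights in limma 3.58.1, other scalings, filters, blocks and fits, and each replicate left out. The members and lists were chosen with earlier results of these data known.

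Named beside the members, by rule, were up to 3 called genes per list and direction with a mean of at least 5 CPM in the higher cell type, the 3 pathway genes of smallest p in each comparison without calls, and the 3 genes nearest each member; 1 gene that this rule names is not reported here. Within groups, chi-square per degree of freedom between pairs of libraries was 32.0 to 127, so no library repeats another. Microglia and astrocyte libraries are paired by the animal numbers in the labels; their deviations from group means correlated at 0.02, 0.13 and 0.17 for WT and 0.09, -0.01 and 0.14 for KO animals. The number of columns matched to no library was 0. Gene lengths came from GENCODE models on the older build GRCm38, so no gene coordinates on the files' build are given; the windows before start sites are RefSeq's on GRCm38.p6. Those of Smad2 and Smad7 were not used here.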

Additional observations from a re-analysis of the deposited data

How the results depend on the processing

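Between the cell types, 124 of 128 values of the members under alternatives kept direction and call, and the other 4, all of Smad2, lost the call: with a minimum count of 50 (adjusted p = 0.0573), with WT animals only (0.136), with KO animals only (0.121) and without WT replicate 1 (0.135). Library totals in place of TMM moved the median log2 difference of all genes by 0.28, and 8 abundant non-coding RNAs took 11.8% to 15.4% of microglia counts and 26.2% to 39.5% of astrocyte counts. Genes called between the cell types numbered 11166, with 10266 to 10958 when an animal was left out and 10400 with the animal as a block.

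Genes called between genotypes in microglia numbered 0 in the main test, 121 when no low-count filter was used, 41 by DESeq2, 41 in the fit that holds the astrocytes too and 0 to 2 when a replicate was left out (2 without KO replicate 2). In astrocytes they numbered 0, 4 by DESeq2, 17 without a filter and 0 to 1 without a replicate (1 without WT replicate 1). For the difference between cell types they numbered 0, 54 by DESeq2, 160 without a filter and 0 to 6 without a replicate (6 without KO replicate 3, 1 without WT replicate 2). No member was among the calls, and the cause of these differences was not tested. With the replicate number as a block, 30 genes were called in microglia and 0 in astrocytes; deviations of WT and KO libraries with equal numbers correlated at 0.12, 0.06 and 0.28 (microglia) and at -0.02, 0.04 and 0.33 (astrocytes), not each the best match, and the labels do not pair WT with KO animals. The block changed the call of Ltbp3 in microglia.

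Genotype differences of members changed sign under 4 of 112 alternatives in microglia, 23 of 112 in astrocytes and 24 of 112 for the difference between cell types, none of them a call. In microglia, Tgfb1 was -0.0328 with 12 libraries and -0.0678 to 0.203 without a replicate, and Smad7 -0.369 to 0.0693. In astrocytes, Smad3 was 0.00903 by DESeq2, 0.00899 with its size factors and 0.00156 with 12 libraries, Tgfb1 was 0.38 by voom and 0.52 with the replicate block, and Tgfbr1 was -0.0213 with library totals, which shifted all genes by -0.11. Without a replicate, the ranges in astrocytes were -0.73 to 0.53 for Tgfb1, -0.27 to 0.16 for Tgfb2, -0.16 to 0.31 for Tgfbr1, -0.126 to 0.0932 for Tgfbr2, -0.20 to 0.50 for Smad2, -0.17 to 0.13 for Smad3 and -0.0855 to 0.35 for Nrros. For the difference between cell types, Nrros was -0.00875 by DESeq2, -0.00938 with its size factors, -0.16 with library totals, -0.10 without a filter and -0.10 without the 8 non-coding RNAs, Smad2 was -0.0666 by voom, -0.18 with totals, -0.0782 without a filter and -0.0746 without the 8 RNAs, and Tgfb1 was 0.48 by voom and 0.28 with the animal as a replicate block. Without a replicate these ranged from -0.79 to 0.49 (Tgfb1), -0.55 to 0.11 (Tgfbr1), -0.30 to 0.11 (Smad2), -0.62 to 0.21 (Smad7) and -0.39 to 0.18 (Nrros). Smad4 between cell types was -0.0214 by DESeq2, -0.0213 with its size factors, -0.0169 with the animal as a replicate block, -0.00121 without a filter, -0.0395 with a minimum count of 50, -0.22 with WT animals only and -0.0119 to 0.286 without a replicate. The cause of the sign changes was not tested.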
